A study of Mus musculus with 8 samples.

Results

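Aminoacyl-tRNA synthetases join each amino acid to its transfer RNA, the step that supplies the ribosome with charged tRNA. The 36 genes described here were taken from the deposited table by symbol, 20 for cytosolic enzymes or their subunits and 16 for mitochondrial enzymes, whose symbols end in 2, out of 16337 genes in all. Most amino acids are served by a separate nuclear gene for each compartment. Kars and Gars, for the lysyl and glycyl enzymes, each supply both compartments and so have no mitochondrial partner gene. Qars, the glutaminyl enzyme, has none either, because mitochondria form glutaminyl-tRNA from glutamate through Ears2 and an amidotransferase. Eprs is a fused glutamyl-prolyl enzyme, and Farsa and Farsb are the subunits of the cytosolic phenylalanyl enzyme. Dars, Eprs, Iars, Kars, Lars, Mars, Qars and Rars belong to the multisynthetase complex, and 13 of the 20 cytosolic genes are known targets of ATF4, the transcription factor of the integrated stress response that also drives amino acid uptake and synthesis. The kinase PERK, named in the title of the study, is one of the kinases that raise ATF4 translation.

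RNA came from primary hepatocytes, isolated by collagenase digestion from livers of male mice 4 weeks old. Both genotypes, C57BL/6 wild type and HAMP-/- (knockout of Hamp, the gene of the iron hormone hepcidin), received either CCl4, a liver toxicant, as a 12.5% mixture in olive oil, or olive oil alone, for 24 h. The design text gives 6 mice a group, while each of the 4 groups has 2 libraries, and the labels do not say whether these come from different mice, so the p-values rest on differences between libraries that may be no more than technical. The genotype of the knockout is given only as HAMP-/-, with no account of the allele or of littermate controls.

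The values are FPKM, which corrects fragment numbers for transcript length and for the fragments mapped in a library, and the read depth behind them is unknown. Hamp itself was at 1136 to 1826 FPKM in the 4 wild-type libraries and at 0.54 to 2.72 FPKM in the 4 knockout libraries. Hepatocyte markers were high in every library, with Alb, the albumin gene, at 30693 to 56038 FPKM. Other cells were also represented. The summed level of 12 macrophage markers was 34.8 to 40.8 FPKM in wild-type oil, 220 to 232 in wild-type CCl4, 344 to 447 in knockout oil and 595 to 736 in knockout CCl4. For 8 neutrophil and monocyte markers the sums were 9.34 to 9.55, 75.1 to 76.1, 7.07 to 9.13 and 60.7 to 75.1 FPKM in the same order, with Ccr2 under 0.1 FPKM in both knockout oil libraries. For 8 endothelial markers they were 7.66 to 10.1, 4.92 to 5.37, 47.9 to 59.2 and 30.5 to 32.2 FPKM. In such bulk samples, fewer cells of a type and less RNA per cell cannot be told apart, and the part of these other cells in the synthetase values was not tested.

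In both knockout groups, the 2 libraries stood further apart than in the wild-type groups. The SD over 10082 tested genes of the log2 difference between the 2 libraries was 0.364 in knockout oil and 0.394 in knockout CCl4, against 0.139 in each wild-type group. The difference followed the GC content of the transcript, with r = 0.58 and 0.64 over the 10055 tested genes with a GC value. Over the 35 tested synthetase genes r was 0.52 and 0.64, where the points of a group share the same 2 libraries. With log2 transcript length r was -0.42 and -0.34 over all tested genes, and -0.09 and 0.01 over the synthetases. Among the synthetases, the AT-rich Dars and Eprs differed most between the 2 libraries. Mars2, lower still in GC content, differed by only -0.10 and -0.13, at 0.57 to 1.22 FPKM in the knockout. Dars, the aspartyl enzyme of the complex, was at 24.8 and 16.6 FPKM in knockout oil and at 18.1 and 7.87 in knockout CCl4. Eprs was at 23.0 and 10.5 FPKM in knockout oil and at 14.7 and 7.30 in knockout CCl4. In wild type the 2 libraries of a group were close for both genes, within 21.6 to 22.8 FPKM for Dars and 24.0 to 26.6 FPKM for Eprs. Lars, Rars and Rars2 were likewise lower in replicate 2 of both knockout groups. Some changes are therefore also given without that replicate of both groups, which leaves 1 library in each knockout group. The spread in that fit comes from the wild-type pairs alone, so its calls in contrasts with the knockout do not measure knockout spread. Which of the 2 replicates deviates cannot be told from 2 libraries, and the omission of replicate 1 of both groups was not run. Counts of separated libraries and of neighbouring genes below are from all libraries.

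**Figure D1:**
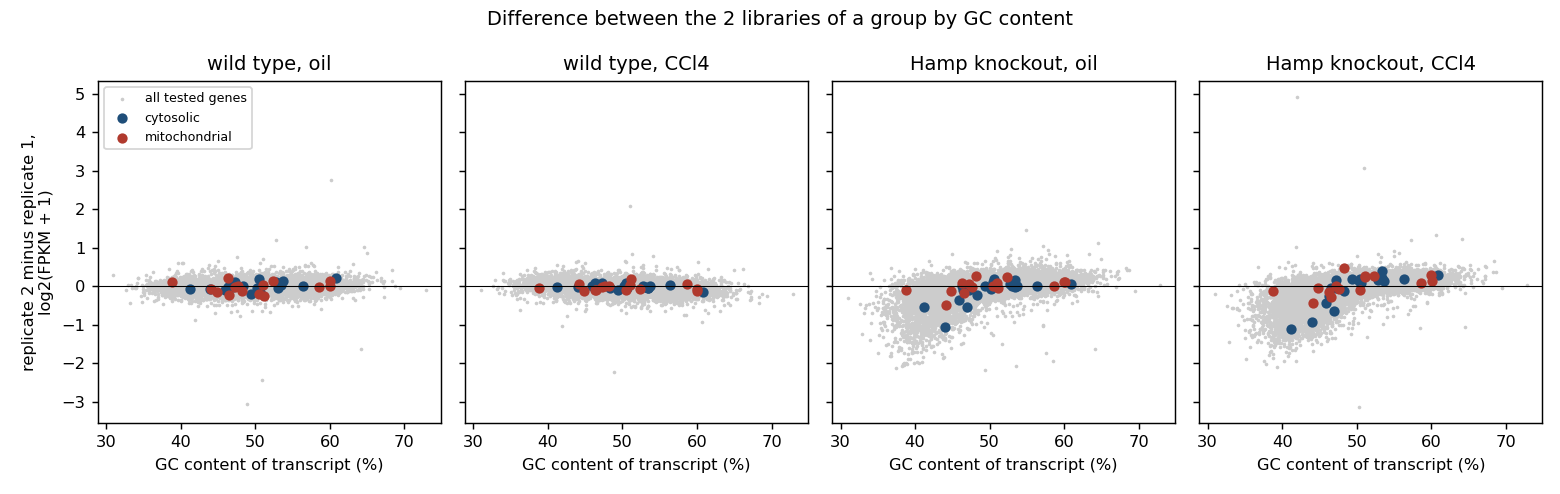
Difference between the 2 libraries of each group, as log2(FPKM + 1) of replicate 2 minus replicate 1, by GC content of the transcript in percent. Grey points are all tested genes, blue points the cytosolic and red points the mitochondrial synthetases. In the knockout panels the points of low GC content lie below 0, as far as -1.11 for Dars after CCl4.

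The upstream sequence of several synthetase genes is shown first, because the genes with the largest responses differ in whether they hold an ATF4-type element there. Windows of 250 bases before to 50 after the annotated start were matched in RefSeq (GRCm38.p6, a later build than the mm8 of the submitters' processing notes) for 27 of the 36 genes, 13 cytosolic and 14 mitochondrial. Cars, Hars, Lars, Nars, Rars, Vars, Wars, Hars2 and Pars2 were not matched. The core letters of composite C/EBP-ATF elements, TGATGNAA, were searched on both strands. They occurred in 5 of the 13 cytosolic and 0 of the 14 mitochondrial windows, against 4.51% of 27025 genes with a window and 2.8% of the 8165 tested genes with one. Below, 150 bases before to 30 bases after the start are printed for those 5 genes and for Sars and Fars2, which changed most and hold no match, with the matched letters in capitals. A match in capitals on the printed strand reads TTGCATCA or TTTCATCA where the element lies on the other strand.
Aars (chr8:111033692-111033871, plus strand): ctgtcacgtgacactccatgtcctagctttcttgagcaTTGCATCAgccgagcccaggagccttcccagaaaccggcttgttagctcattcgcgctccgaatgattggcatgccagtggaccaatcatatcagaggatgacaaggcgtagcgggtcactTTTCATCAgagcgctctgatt
Gars (chr6:55037851-55038030, plus strand): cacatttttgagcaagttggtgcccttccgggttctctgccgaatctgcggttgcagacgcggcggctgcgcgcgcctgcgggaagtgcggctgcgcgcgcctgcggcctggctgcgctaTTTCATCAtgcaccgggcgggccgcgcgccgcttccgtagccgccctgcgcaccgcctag
Iars (chr13:49681980-49682159, plus strand): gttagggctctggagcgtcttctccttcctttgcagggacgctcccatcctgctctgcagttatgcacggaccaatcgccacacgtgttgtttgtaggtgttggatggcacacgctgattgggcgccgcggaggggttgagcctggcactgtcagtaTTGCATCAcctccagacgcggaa
Tars (chr15:11399629-11399808, minus strand): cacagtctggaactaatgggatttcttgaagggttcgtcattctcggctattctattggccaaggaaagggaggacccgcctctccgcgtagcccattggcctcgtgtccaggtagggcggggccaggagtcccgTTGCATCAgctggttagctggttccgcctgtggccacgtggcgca
Yars (chr4:129189753-129189932, plus strand): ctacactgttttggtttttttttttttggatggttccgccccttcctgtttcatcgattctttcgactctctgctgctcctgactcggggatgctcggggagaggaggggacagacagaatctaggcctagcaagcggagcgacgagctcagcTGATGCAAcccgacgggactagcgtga
Sars (chr3:108445230-108445409, minus strand): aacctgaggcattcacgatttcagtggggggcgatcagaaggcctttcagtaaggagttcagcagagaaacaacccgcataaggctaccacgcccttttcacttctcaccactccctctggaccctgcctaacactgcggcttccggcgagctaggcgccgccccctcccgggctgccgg
Fars2 (chr13:36117493-36117672, plus strand): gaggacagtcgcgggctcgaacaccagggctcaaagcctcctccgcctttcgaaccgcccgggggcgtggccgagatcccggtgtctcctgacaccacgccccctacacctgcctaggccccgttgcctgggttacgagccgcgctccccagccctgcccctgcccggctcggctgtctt

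Counted from the first transcribed base, the matches began at -112 and 10 in Aars, at -30 in Gars, at 8 in Iars, at -15 in Tars and at 4 in Yars. The E-box CACGTG was present in 4 of 13 cytosolic windows (Aars, Farsb, Iars and Tars) and in 1 of 14 mitochondrial windows (Ears2), against 12.2% of tested genes. The E-box is the letter core bound by MYC and related factors. These are matches of letters only, and no binding was measured.

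Cytosolic synthetases were expressed at a higher level per length than mitochondrial ones. In wild-type oil, the median of the 20 cytosolic genes was 13.5 FPKM in both libraries, and the median of the 16 mitochondrial genes was 4.46 and 4.56 FPKM. The median cytosolic gene was thus 3.03 and 2.97 times the median mitochondrial gene there, 4.11 times in both wild-type CCl4 libraries, 3.85 and 3.22 times in knockout oil and 5.98 and 4.27 times in knockout CCl4. Summed over the set, the cytosolic genes stood at 330 FPKM in both wild-type oil libraries, 419 in both wild-type CCl4 libraries, 373 and 347 in knockout oil and 401 and 405 in knockout CCl4. The mitochondrial sum was 79.3 and 80.7, 75.7 and 73.1, 78.1 and 82.2, and 93.3 and 103 FPKM in the same order. The 2 sums therefore differed in which group was highest, wild-type CCl4 for the cytosolic set and knockout CCl4 for the mitochondrial set. The latter sum held Fars2 at 37.48 and 44.99 FPKM, against 11.03 to 14.95 FPKM for that gene in the other groups. The mitochondrial median was lowest in knockout CCl4, at 2.885 and 3.70 FPKM, against 3.875 to 4.56 FPKM in the other groups.

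By mean over the 8 libraries, Aars, the alanyl enzyme, was the highest cytosolic gene, followed by Nars and Tars, for asparagine and threonine. Lars, the leucyl enzyme, was the lowest, at 3.14 to 6.63 FPKM. In the mitochondrial set Fars2, the phenylalanyl enzyme, had the highest mean, at 11.0 to 45.0 FPKM, followed by Iars2 and Yars2, for isoleucine and tyrosine. The place of Fars2 rests on its knockout CCl4 libraries, since Iars2 was higher in knockout oil, at 15.6 and 16.3 against 12.41 and 14.95 FPKM. Pars2, the prolyl enzyme, was lowest at 0.35 to 1.24 FPKM and was the one gene left out of the test, which required 1 FPKM in at least 2 libraries. Mars2, the methionyl enzyme, passed that filter only through its 2 knockout CCl4 libraries, at 1.22 and 1.03 FPKM. In 13 of 17 pairs of a cytosolic gene with the mitochondrial gene for the same amino acid, the cytosolic member was higher in all 8 libraries. The 4 exceptions were Farsa and Farsb against Fars2, Iars against Iars2 and Yars against Yars2.

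**Figure D2:**
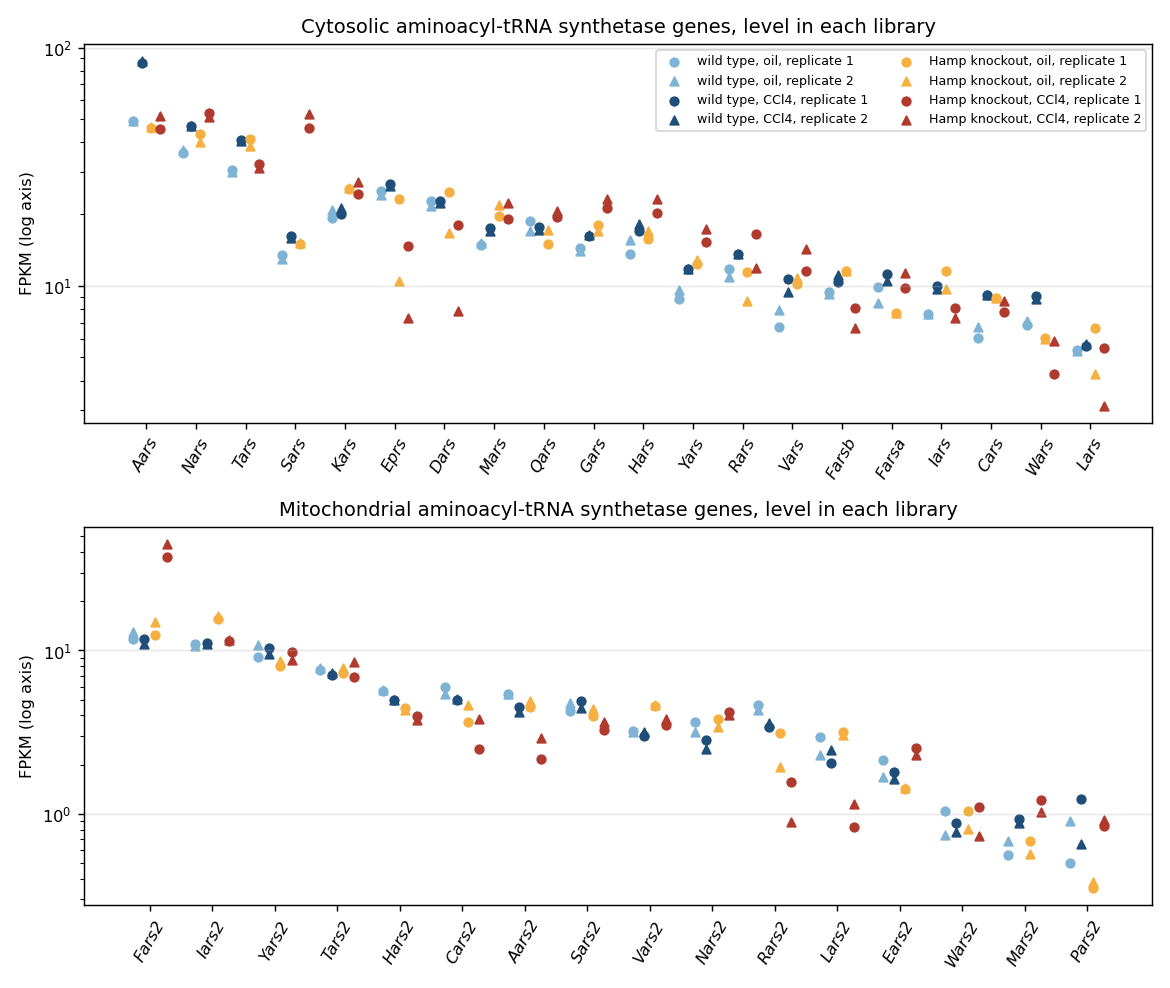
FPKM on a log axis of each cytosolic (top) and mitochondrial (bottom) synthetase gene in each of the 8 libraries, ordered by mean level; circles are replicate 1 and triangles replicate 2. Aars stands at 86.3 and 87.7 FPKM in wild-type CCl4, and Sars and Fars2 stand apart from the other groups in knockout CCl4.

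After CCl4 in wild type, nearly all cytosolic genes had higher values and most mitochondrial genes slightly lower ones, with 4 cytosolic increases past the test. The quantity compared is the difference in mean log2(FPKM + 1), tested with limma over 10082 genes with Benjamini-Hochberg adjustment and a threshold of 0.05. It was above 0 for 19 of 20 cytosolic genes, with a median of 0.26, and for 3 of 15 tested mitochondrial genes, with a median of -0.10, while the median of all tested genes was 0.04. Of the cytosolic genes 4 passed the test as higher and none as lower, where 10.2% of all tested genes were called higher and 5.61% lower. In the limma test 0 of the 15 mitochondrial genes passed, and 2 (Mars2, higher, and Nars2, lower) had an unadjusted p under 0.05.

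Aars showed the largest of these changes. Its level was 49.0 and 49.1 FPKM in oil and 86.3 and 87.7 FPKM in CCl4, a log2 change of 0.81 ± 0.08 (SE, 2 libraries a group; limma adjusted p = 0.000953). The groups did not overlap and each pair of replicates lay close together. Tars was at 30.49 and 29.96 FPKM in oil and 40.8 and 40.5 in CCl4, a change of 0.41 ± 0.07 (adjusted p = 0.00926). Cars, the cysteinyl enzyme, was at 6.04 and 6.71 FPKM in oil and 9.14 and 9.11 in CCl4, a change of 0.46 ± 0.09 (adjusted p = 0.0178). Nars was at 36.02 and 37.29 FPKM in oil and 46.8 and 46.9 in CCl4, a change of 0.34 ± 0.07 (adjusted p = 0.0195). In all 4 genes both CCl4 libraries were above both oil libraries. Qars had the one change below 0, at -0.03 ± 0.10 (adjusted p = 0.896). Among mitochondrial genes, Mars2 had the highest value, 0.24 ± 0.09 (adjusted p = 0.146), and Sars2, the seryl enzyme, was at 0.04 ± 0.10 (adjusted p = 0.868).

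The CCl4 libraries lay wholly above the oil libraries in 17 cytosolic genes and wholly below in none, where 42.5% and 28.3% of all tested genes did so. For the mitochondrial genes these counts were 2 and 7. All 12 cytosolic genes outside the multisynthetase complex were separated upwards, with a median change of 0.32, and 5 of the 8 in the complex, with a median of 0.09; the 4 called genes all lie outside it. The 13 known ATF4 targets were all separated upwards, with a median change of 0.32, and 4 of the 7 other cytosolic genes were, with a median of 0.18.

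The number of wild-type calls depended on which libraries gave the estimate of spread. Fitted with the 4 wild-type libraries alone, 13 cytosolic genes were called higher (those 4 and Gars, Hars, Iars, Mars, Rars, Sars, Vars, Wars and Yars) and 3 mitochondrial genes lower (Aars2, Nars2 and Rars2), while 26.0% of all tested genes were called higher and 15.5% lower; the same counts of 13 and 3 were found with replicate 2 of both knockout groups omitted. Without any 1 of the 4 wild-type libraries, Aars stayed past the threshold while Cars, Nars and Tars did not, with adjusted p from 0.0667 to 0.144, 0.111 to 0.157 and 0.0784 to 0.0891. In the main fit of this comparison, 10 of 12 macrophage markers and 7 of 8 neutrophil and monocyte markers rose, where 10.2% of all tested genes were called higher. Of the latter markers, Csf3r, Retnlg, Ccr2 and Itgam met the filter of the test only through CCl4 libraries, so they carry no weight in that count.

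**Figure D3:**
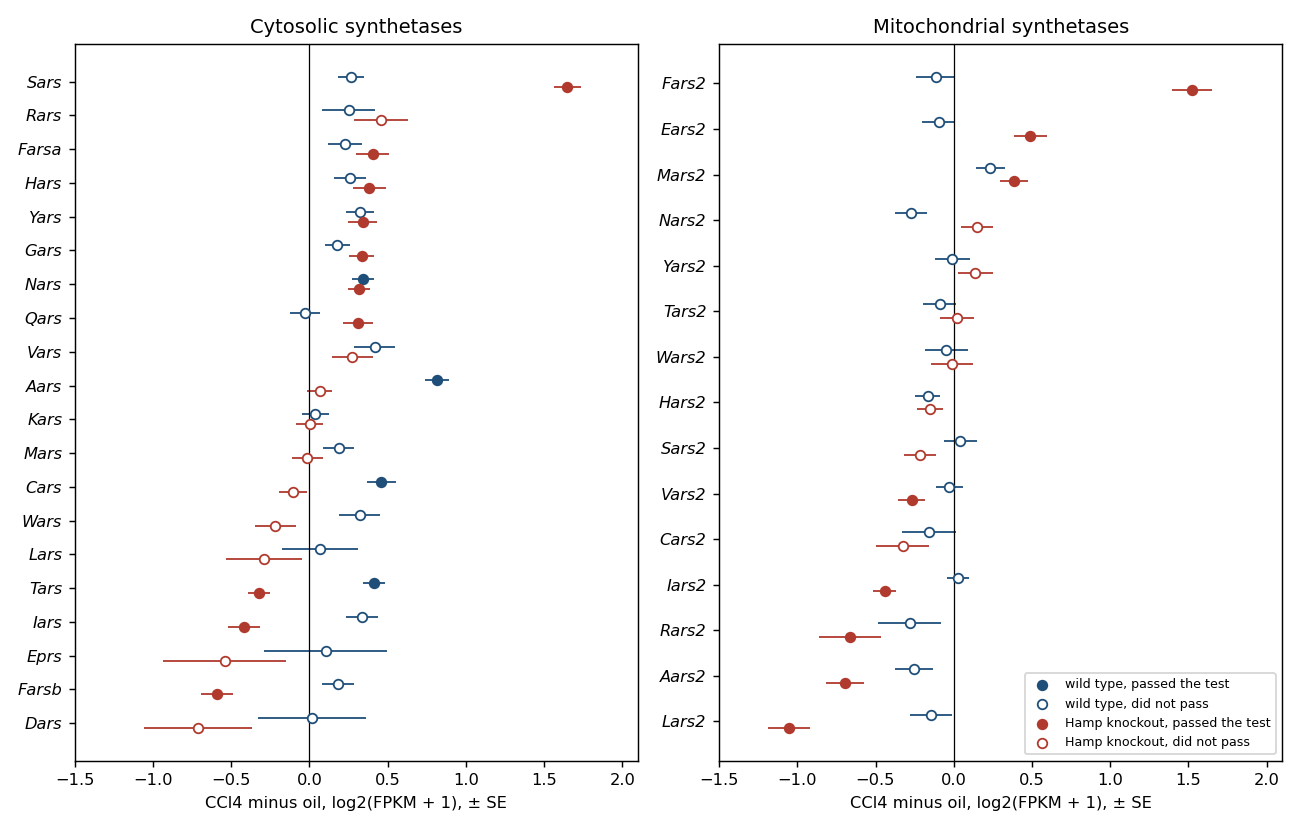
Change after CCl4 (CCl4 minus oil, difference in mean log2(FPKM + 1), bars ± SE from limma, 2 libraries a group) for each tested synthetase gene in wild type (blue) and Hamp knockout (red); filled points passed the test. Wild-type values lie between -0.28 and 0.81, while knockout values reach 1.65 for Sars, 1.52 for Fars2 and -1.05 for Lars2.

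After CCl4 in the Hamp knockout, both sets moved in both directions, with 1 large increase in each. Of the cytosolic genes 7 rose and 3 fell, and of the mitochondrial genes 3 rose and 5 fell. One of the 3, Mars2, entered the test only through the libraries in which it was high, so its call carries no weight. Because 55.3% of all tested genes were called in this comparison, 27.9% higher and 27.4% lower, these shares are near those of genes at large. The median change was 0.03 for the cytosolic and -0.15 for the mitochondrial genes, against -0.03 for all tested genes. The CCl4 libraries lay wholly above the oil libraries in 9 cytosolic genes and wholly below in 5, and in 5 and 7 mitochondrial genes, where 35.8% and 35.2% of all tested genes did so.

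Sars, the seryl enzyme of the cytosol, rose most. It stood at 14.9 and 15.1 FPKM in knockout oil and 46.2 and 52.5 FPKM in knockout CCl4, a log2 change of 1.65 ± 0.08 (SE, 2 libraries a group; limma adjusted p = 1.23e-05). Its 4 wild-type libraries and both knockout oil libraries lay between 13.0 and 16.2 FPKM, so that knockout CCl4 alone was high. Nars rose from 43.2 and 40.2 to 53.1 and 51.3 FPKM, by 0.32 ± 0.07 (adjusted p = 0.00811). Gars rose from 17.9 and 16.9 to 21.2 and 23.2 FPKM, by 0.33 ± 0.08 (adjusted p = 0.011). In neither gene did the groups overlap. The other increases were those of Farsa, Hars, Qars and Yars, for phenylalanine, histidine, glutamine and tyrosine, with changes of 0.31 to 0.40.

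Farsb fell, although it encodes the partner subunit of Farsa. It was at 11.5 and 11.6 FPKM in knockout oil and 8.05 and 6.63 in knockout CCl4, a change of -0.59 ± 0.10 (adjusted p = 0.00275). Tars, which rose in wild type, fell from 41.4 and 38.7 to 32.4 and 31.2 FPKM, a change of -0.32 ± 0.07 (adjusted p = 0.00734). Iars, the isoleucyl enzyme of the complex, fell from 11.5 and 9.72 to 8.06 and 7.30 FPKM, a change of -0.42 ± 0.10 (adjusted p = 0.0125). In all 3 genes both CCl4 libraries lay below both oil libraries. Aars, at 46.1 and 46.6 FPKM in oil and 45.6 and 51.7 in CCl4, overlapped and had a change of 0.07 ± 0.08 (adjusted p = 0.52).

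Among mitochondrial genes, Fars2 rose from 12.41 and 14.95 FPKM in knockout oil to 37.5 and 45.0 FPKM in knockout CCl4, a change of 1.52 ± 0.13 (adjusted p = 0.000104). As with Sars, only the knockout CCl4 libraries were high, and the other 6 lay between 11.03 and 14.95 FPKM. Lars2, the leucyl enzyme, fell from 3.17 and 3.05 to 0.83 and 1.15 FPKM, a change of -1.05 ± 0.14 (adjusted p = 0.000728). Iars2 fell from 15.6 and 16.3 to 11.5 and 11.5 FPKM, a change of -0.44 ± 0.07 (adjusted p = 0.00217). Aars2, the alanyl enzyme, fell from 4.49 and 4.92 to 2.17 and 2.91 FPKM, a change of -0.70 ± 0.12 (adjusted p = 0.00277). The groups of these 4 genes did not overlap. Ears2, for glutamate, also rose, by 0.49, Mars2, for methionine, was called at 0.39 with the limit on its entry given above, and Rars2 and Vars2, for arginine and valine, fell, with changes of -0.66 and -0.27.

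Apart from Mars2, 9 of the 17 calls were kept whichever 1 library was left out (Farsb, Nars, Sars, Tars, Aars2, Ears2, Fars2, Iars2 and Lars2). Farsa was lost without either knockout oil library (adjusted p = 0.0601 and 0.0556) or replicate 2 of knockout CCl4 (0.0694). Gars was lost without replicate 2 of knockout oil (0.0565) and Iars without replicate 1 (0.069). Hars and Yars were lost without replicate 1 of knockout oil (0.0913 and 0.0814) or replicate 2 of knockout CCl4 (0.0795 and 0.0684). Qars and Rars2 were lost without any 1 library other than replicate 2 of knockout oil and replicate 1 of knockout CCl4 (0.0515 to 0.158 and 0.0524 to 0.125), and Vars2 without any 1 other than replicate 2 of knockout CCl4 (0.0608 to 0.109). The change of Rars2 was -0.42 without replicate 1 of knockout oil. With replicate 2 of both knockout groups omitted, 14 cytosolic and 9 mitochondrial genes were called against 64.9% of all tested genes. The added falls included Eprs at -0.62 and Dars at -0.44. That fit holds 1 library in each knockout group, so its calls do not measure knockout spread. Replicate 2 minus replicate 1 was -1.07 and -0.92 for Eprs and -0.549 and -1.105 for Dars in knockout oil and CCl4. For both genes these differences were larger than the fall. Fitted with the 4 knockout libraries alone, 2 cytosolic and 5 mitochondrial genes passed, with 19.9% of all tested genes called higher and 18.8% lower.

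The genotypes responded differently to CCl4 in 10 synthetase genes, by the interaction term of the limma fit (the change after CCl4 in the knockout minus that in wild type). Of the cytosolic genes 1 was more raised in the knockout and 5 were less raised or lowered, and of the mitochondrial genes 2 lay each way. Of all tested genes 33.3% were called in the same term, 14.3% higher and 19.0% lower, so the count of 10 is near the share of genes at large. For Sars the difference was 1.39 ± 0.12 (SE; adjusted p = 0.000332), and for Fars2 it was 1.64 ± 0.18 (adjusted p = 0.000873). Ears2, which was at 1.41 and 1.44 FPKM in knockout oil and 2.52 and 2.29 in knockout CCl4, followed with 0.59 ± 0.15 (adjusted p = 0.0245).

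In the other direction, Tars differed by -0.74 ± 0.10 (adjusted p = 0.00198), having been called higher after CCl4 in wild type and lower in the knockout. Aars differed by -0.75 ± 0.11 (adjusted p = 0.00301) and Cars by -0.57 ± 0.13 (adjusted p = 0.0165), both called higher in wild type and not called in the knockout. Farsb, at -0.77 ± 0.14 (adjusted p = 0.0078), and Iars, at -0.75 ± 0.14 (adjusted p = 0.00848), were called lower in the knockout and not called in wild type. Lars2, at -0.91 ± 0.19 (adjusted p = 0.0124), and Iars2, at -0.47 ± 0.10 (adjusted p = 0.014), were the mitochondrial genes of this direction. Of the 5 genes with the TGATGNAA letters in the sequences above, Aars, Iars and Tars are among these, while Gars, at 0.16 ± 0.11 (adjusted p = 0.33), and Yars, at 0.02 ± 0.13 (adjusted p = 0.942), were not called. Nars was called higher in both genotypes, at 0.34 and 0.32, with a difference of -0.03 ± 0.10 (adjusted p = 0.864).

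Aars, Farsb, Iars, Sars, Tars and Fars2 stayed past the threshold whichever 1 library was left out. Cars was lost without replicate 1 of wild-type oil (adjusted p = 0.0739) or either wild-type CCl4 library (0.0641 and 0.0646), and Lars2 without replicate 2 of wild-type oil (0.0505) or of wild-type CCl4 (0.0557). Iars2 was lost without any 1 wild-type library (0.0555 to 0.0665), and Ears2 without replicate 1 of wild-type oil (0.0878), either wild-type CCl4 library (0.0637 and 0.0946) or either knockout oil library (0.0618 and 0.0501). With replicate 2 of both knockout groups omitted, 10 cytosolic and 6 mitochondrial genes were called against 52.0% of all tested genes. In RefSeq the Aars gene overlaps Ddx19b over 3974 bases and the Farsb gene overlaps Sgpp2 over 2332 bases. The strand of the counting is not given in the sources used here, so reads in these stretches cannot be assigned; Ddx19b was at 1.75 to 3.13 FPKM and Sgpp2 at 0.03 to 0.14 FPKM. The span of the Fars2 gene overlaps that of an annotated long noncoding RNA over 20270 bases, whose part in the Fars2 level was not tested.

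Read pair by pair, most ratios of cytosolic to mitochondrial level were higher after CCl4 in wild type, while those in the knockout moved both ways. No share of separated ratios among other gene pairs was computed. Of single tested genes, 42.5% were separated upwards and 28.3% downwards in wild type, and 35.8% and 35.2% in the knockout. In wild type, the ratio of cytosolic to mitochondrial level (as log2 of FPKM + 1) was higher in both CCl4 libraries than in both oil libraries for 15 of 17 pairs, lower for Mars/Mars2, and overlapped for Eprs/Pars2, with a median shift of 0.34. Aars/Aars2 shifted most, from 2.97 in both oil libraries to 3.99 and 4.09 in the CCl4 libraries. Some separations were slight, with nearest oil and CCl4 values of 0.949 and 0.958 for Lars/Lars2 and 3.261 and 3.255 for Mars/Mars2. Mars2, Wars2 and Pars2 did not exceed 1.24 FPKM in any library. In the knockout, 8 pairs were separated upwards and 5 downwards, and 4 overlapped, with a median shift of 0.17. From replicate 1 of each knockout group alone, the ratio was higher after CCl4 in 9 pairs and lower in 8, with a median shift of 0.02. Sars/Sars2 rose from a mean of 1.63 to 3.50. Farsa/Fars2 fell from a mean of -0.75 to -1.87 and Farsb/Fars2 from -0.22 to -2.34, so that the FPKM of Farsb was 0.215 and 0.147 times that of Fars2 in knockout CCl4, against 0.927 and 0.773 times in knockout oil. The other pairs that went down were Eprs/Ears2, Mars/Mars2 and Tars/Tars2. Eprs and Fars2 each enter 2 pairs, and pairs that share a gene are not separate observations.

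**Figure D4:**
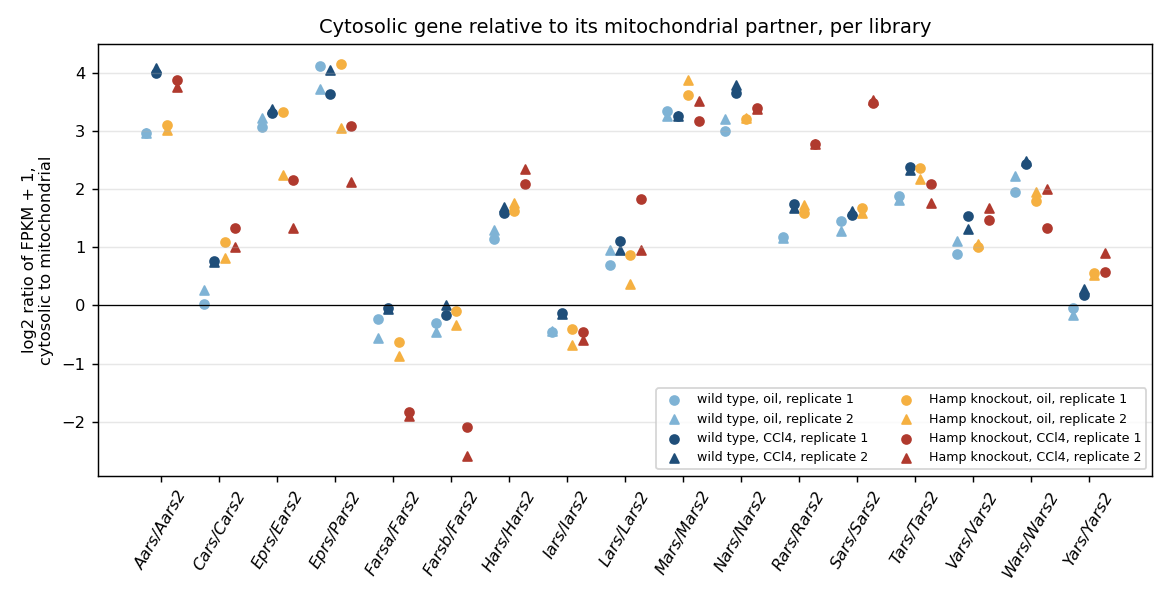
Log2 ratio of the cytosolic to the mitochondrial gene of each pair, from FPKM + 1, in each library; circles are replicate 1 and triangles replicate 2. Points above 0 mean more of the cytosolic gene. The 2 pairs with Fars2 drop to between -1.83 and -2.59 in knockout CCl4, while Sars/Sars2 stands near 3.50 there.

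In mice given oil alone, 8 cytosolic genes were higher in the Hamp knockout than in wild type and none was lower by the test, while 33.4% of all tested genes were called, 22.4% higher and 11.0% lower. The 8 were Cars, Gars, Iars, Kars, Mars, Tars, Vars and Yars, and 7 of them, all but Kars, are among the 13 known ATF4 targets. The median change was 0.18 for the cytosolic set, -0.03 for the mitochondrial set and 0.05 for all tested genes. Of the mitochondrial genes, Iars2 and Vars2 were higher and Hars2 and Rars2 lower. The knockout libraries lay wholly above the wild-type libraries in 12 cytosolic and 3 mitochondrial genes and wholly below in 4 and 6, where 41.5% and 28.7% of all tested genes did so.

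Tars was at 30.49 and 29.96 FPKM in wild-type oil and 41.4 and 38.7 in knockout oil, a log2 change of 0.39 ± 0.07 (SE; limma adjusted p = 0.00613). Cars was at 6.04 and 6.71 FPKM in wild type and 8.91 and 8.92 in the knockout, a change of 0.43 ± 0.09 (adjusted p = 0.0127). Yars, the tyrosyl enzyme, was at 8.81 and 9.56 FPKM against 12.3 and 12.9, a change of 0.42 ± 0.09 (adjusted p = 0.014). For Tars and Cars, the knockout oil libraries lay at levels close to those of wild-type CCl4, 40.8 and 40.5 FPKM for Tars and 9.14 and 9.11 for Cars; no test of that closeness was made. Mars changed by 0.44 ± 0.10 (adjusted p = 0.0157), Iars by 0.43 ± 0.10 (adjusted p = 0.0194) and Kars by 0.34 ± 0.09 (adjusted p = 0.0248). Aars was at 49.0 and 49.1 FPKM in wild type and 46.1 and 46.6 in the knockout, with a change of -0.08 ± 0.08 (adjusted p = 0.474). The values farthest below 0 in the cytosolic set were those of Eprs, at -0.62 ± 0.39 (adjusted p = 0.27), and Farsa, at -0.22 ± 0.11 (adjusted p = 0.161). With replicate 2 of both knockout groups omitted, which leaves 1 library in each, Eprs was at -0.09 and Qars at -0.24.

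Among mitochondrial genes, Iars2 was at 10.9 and 10.7 FPKM in wild-type oil and 15.6 and 16.3 in knockout oil, a change of 0.52 ± 0.07 (adjusted p = 0.00231). Vars2 was at 3.21 and 3.15 FPKM against 4.57 and 4.62, a change of 0.42 ± 0.09 (adjusted p = 0.0103). In both genes all knockout libraries were above all wild-type libraries. Hars2, the histidyl enzyme, was lower, at 5.65 and 5.72 FPKM against 4.45 and 4.35, a change of -0.31 ± 0.08 (adjusted p = 0.0276). Rars2 was at 4.64 and 4.33 FPKM against 3.12 and 1.94, a change of -0.66 ± 0.20 (adjusted p = 0.0445), with its lowest value in replicate 2 of knockout oil.

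Iars2 was the only one of these 12 calls kept whichever 1 library was left out. Tars was lost without replicate 2 of wild-type oil (adjusted p = 0.0564) and Cars without replicate 1 of wild-type oil (0.0974) or replicate 2 of knockout oil (0.055). Mars, Yars and Vars2 were lost without either wild-type oil library (0.0954 and 0.084, 0.104 and 0.0538, 0.0655 and 0.0722) or replicate 2 of knockout oil (0.079, 0.0685 and 0.0518), and Iars without either wild-type oil library (0.102 for each) or replicate 1 of knockout oil (0.0814). Gars, Kars, Vars and Hars2 were lost without any 1 wild-type or knockout oil library (0.081 to 0.186, 0.0522 to 0.159, 0.0592 to 0.194 and 0.0611 to 0.137), and Rars2 without any 1 wild-type library or replicate 2 of knockout oil (0.0825 to 0.188); its change without the latter was -0.41. With library medians made equal 3 cytosolic genes were called, with quantile normalization 5, and with replicate 2 of both knockout groups omitted 12 (11 higher and Qars lower), beside 5 mitochondrial genes and 50.8% of all tested genes. All 12 macrophage and all 8 endothelial markers were called higher in the knockout in this comparison. Of the endothelial markers, Pecam1, Cdh5, Kdr, Stab1, Stab2 and Lyve1 met the filter of the test only through knockout libraries, so their calls carry no weight.

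After CCl4, the knockout and wild type differed in 10 cytosolic and 9 mitochondrial genes, in both directions. Of the cytosolic genes 4 were higher in the knockout and 6 lower, where 57.1% of all tested genes were called, 29.6% higher and 27.5% lower. Of the mitochondrial genes 3 were higher and 6 lower. The median change was 0.00 for the cytosolic set, 0.06 for the mitochondrial set and -0.02 for all tested genes. Of the cytosolic genes 9 were wholly separated upwards and 9 downwards, and of the mitochondrial genes 6 each way, against 39.4% and 41.1% of all tested genes. Both these separations and the total number of calls are near the shares of genes at large.

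Sars was at 16.2 and 15.9 FPKM in wild-type CCl4 and 46.2 and 52.5 in knockout CCl4, a log2 change of 1.56 ± 0.08 (SE; limma adjusted p = 2.04e-05). Aars was at 86.3 and 87.7 FPKM against 45.6 and 51.7, a change of -0.83 ± 0.08 (adjusted p = 0.000216). Wars, the tryptophanyl enzyme, was at 9.07 and 8.82 FPKM against 4.26 and 5.89, a change of -0.72 ± 0.13 (adjusted p = 0.00381). In these 3 genes the libraries of the 2 genotypes did not overlap. Gars was higher by 0.43 ± 0.08 (adjusted p = 0.00401), Tars differed by -0.34 ± 0.07 (adjusted p = 0.00576) and Farsb by -0.49 ± 0.10 (adjusted p = 0.00634). Kars and Yars were also higher, by 0.30 and 0.43, and Eprs and Iars were lower, with changes of -1.27 and -0.33.

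Fars2 was at 11.7 and 11.0 FPKM in wild-type CCl4 and 37.5 and 45.0 in knockout CCl4, a change of 1.77 ± 0.13 (adjusted p = 6.63e-05). Lars2 was at 2.06 and 2.46 FPKM against 0.83 and 1.15, a change of -0.71 ± 0.14 (adjusted p = 0.00435). Rars2 was at 3.40 and 3.62 FPKM against 1.56 and 0.89, a change of -1.03 ± 0.20 (adjusted p = 0.00469). Each of these genes was separated between the genotypes. Aars2 changed by -0.60 ± 0.12 (adjusted p = 0.00541), Ears2 and Nars2 were higher by 0.33 and 0.48, and Cars2, Hars2 and Sars2 were lower, with changes of -0.55, -0.29 and -0.36.

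Of these 19 calls, 11 were kept whichever 1 library was left out (Aars, Farsb, Gars, Sars, Tars, Wars, Yars, Aars2, Fars2, Lars2 and Rars2). Eprs and Iars were lost without any 1 wild-type library or replicate 2 of knockout CCl4 (adjusted p = 0.0564 to 0.137 and 0.0619 to 0.133), and Cars2 without any 1 wild-type library or replicate 1 of knockout CCl4 (0.0558 to 0.117). Without replicate 2 of knockout CCl4 the change of Eprs was -0.81, and without replicate 1 that of Cars2 was -0.32. Kars and Hars2 were lost without either wild-type CCl4 library (0.124 and 0.0649, 0.0894 and 0.0907) or replicate 2 of knockout CCl4 (0.0839 and 0.0674), and Sars2 without either wild-type CCl4 library (0.133 and 0.0616) or replicate 1 of knockout CCl4 (0.0799). Ears2 was lost without any 1 CCl4 library (0.052 to 0.158) and Nars2 without replicate 2 of wild-type CCl4 (0.056). With replicate 2 of both knockout groups omitted, 13 cytosolic and 9 mitochondrial genes were called against 68.5% of all tested genes. The change of Dars was then -0.30, from a fit that does not measure knockout spread. Of the markers, 11 of 12 macrophage and 8 of 8 endothelial genes were called higher in the knockout here. The limit given above for endothelial markers that met the filter only through knockout libraries holds here too.

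Genes that work next to the synthetases were read for context, and their counts stand beside the shares of all tested genes called higher and lower, which were 10.2% and 5.61% after CCl4 in wild type and 27.9% and 27.4% in the knockout. Of the 3 scaffold proteins of the multisynthetase complex and the tRNA exporter Xpot, Eef1e1 and Aimp2 rose after CCl4 in wild type, by 0.63 and 0.39, and Eef1e1, Aimp2 and Aimp1 rose in the knockout, by 0.98, 0.52 and 0.55. Xpot was at 18.8 and 16.4 FPKM in knockout oil and 9.38 and 7.73 in knockout CCl4, a change of -0.96 (limma adjusted p = 0.000529), while its 2 wild-type CCl4 libraries, at 14.1 and 15.2 FPKM, lay above the oil ones at 10.8 and 10.4. Its interaction term was -1.39 (adjusted p = 0.00115). Of 18 genes for mitochondrial tRNA modification, amidation and elongation, none was called after CCl4 in wild type, while in the knockout 1 rose and 7 fell. Among the latter were Gfm1 at -0.84 and Gfm2 at -0.73, elongation and recycling factors, and Gatc at -0.79, a subunit of the amidotransferase that completes glutaminyl-tRNA. After CCl4, 11 of the 18 were lower in the knockout than in wild type and none was higher, where 27.5% of all tested genes were lower and 29.6% higher.

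Of 6 cytosolic elongation genes, none was called after CCl4 in wild type, where 15.8% of all tested genes were, against 55.3% in the knockout. In the knockout, 4 rose and 1 fell, the latter being Eef2k, the kinase that inhibits elongation factor 2, at -0.80 (limma adjusted p = 0.000363). Of 10 genes for tRNA editing and special tRNA reactions, none was called in wild type. In the knockout 3 fell, among them Sepsecs, the enzyme that makes selenocysteinyl-tRNA, at -1.28 (adjusted p = 0.0019), and Tarsl2, another cytosolic threonyl enzyme, at -0.83 (adjusted p = 0.0185). Of 23 genes known to be tied to ATF4, for amino acid supply and for factors of the stress response, 19 were tested. After CCl4 in wild type, 7 rose (Atf3, Atf5, Ddit3, Mthfd2, Psat1, Slc38a2 and Slc7a5) and 2 fell (Gpt2 and Shmt2). Asns, Chac1 and Trib3 were among those not called there. After CCl4 in the knockout, 10 rose and 6 fell. In oil, 12 were higher in the knockout and none lower, where 22.4% and 11.0% of all tested genes were. Atf4 itself, whose activity is set mainly by translation, was at 35.7 to 40.7 FPKM in the wild-type libraries, 37.8 and 41.3 in knockout oil and 55.1 and 67.7 in knockout CCl4, a change after CCl4 in the knockout of 0.62 (adjusted p = 0.00397).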

How the data were processed

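The authors deposited one table of FPKM for 8 libraries, per the file headers, with 16338 rows, of which 1 names no gene. Per the submitters' processing notes the genome build was mm8. Aligner, counter and depth are not stated there or in the labels, so precision is known only from 2 libraries a group. FPKM shares out the mapped reads of a library among its genes.

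Libraries were grouped by their titles. Values were taken as log2(FPKM + 1), which understates changes of low genes, and the 10082 genes that reached 1 FPKM in 2 or more libraries were fitted with limma 3.58.1 (trended prior, R 4.3.3), all 8 libraries in 1 model of 4 groups with 4 residual and 2.61 prior degrees of freedom. Contrasts were two-sided and adjusted over all tested genes by Benjamini-Hochberg at an FDR of 0.05. Such a fit was tested on simulated data in which each gene had the same independent spread in all groups. That test therefore does not cover the wider and shared replicate differences of the knockout libraries. Changes are given ± SE. RefSeq (GRCm38.p6) gave promoters, matched for 27 members. The longest GENCODE transcript of each gene gave GC content and transcript length, matched for all 36 members. Both were matched by Entrez identifier. The alternatives tried were other scalings, filters, pseudocounts, replicate blocks, subsets of libraries and each library left out.

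Members and lists were chosen with earlier results of these data known. Named with values are, in each contrast, the cytosolic (up to 6) and mitochondrial (up to 4) members with the smallest adjusted p among those called, up to 2 of each set against its direction and the extremes of level. Further values were added where another contrast named the gene, or where it was chosen after its values were seen (Atf4, Dars, Eprs, Tarsl2 and Xpot).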

Additional observations from a re-analysis of the deposited data

Results flagged for a closer look

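The change after CCl4 differed between the knockout and wild type, by the interaction term of the limma fit over all 8 libraries, in 10 of the 35 tested synthetase genes, where 33.3% of all tested genes passed. That count is near the share of genes at large. The difference (knockout minus wild type, log2 scale) was 1.64 for Fars2, 1.39 for Sars and 0.59 for Ears2. It was -0.91 for Lars2, -0.77 for Farsb, -0.75 for Aars, -0.75 for Iars, -0.74 for Tars, -0.57 for Cars and -0.47 for Iars2. Only for Tars did the 2 genotypes each pass the test in opposite directions.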

How the results depend on the processing

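Of the 63 calls over the 5 contrasts, Mars2 included, 29 were kept whichever 1 library was left out and 25 under all 19 alternatives. Counts of called genes with 1 library left out ranged, in the cytosolic set, from 1 to 8 (CCl4 in wild type), 6 to 12 (CCl4 in the knockout), 1 to 9 (genotype in oil), 7 to 15 (genotype after CCl4) and 5 to 7 (interaction), and in the mitochondrial set from 0 to 0, 6 to 8, 1 to 5, 4 to 9 and 1 to 5. The lone library of such a group is assumed to vary like the other groups. For CCl4 in wild type the cytosolic count of 4 became 2 with equal library medians, 12 with libraries weighted by genotype, 13 with only the libraries compared or with knockout replicate 2 omitted, and 10 with GC and length trends removed, and the mitochondrial count of 0 became 3 with only the libraries compared, with weights or with that replicate omitted. The share of all tested genes called rose there from 15.8% to 37.7% with weights, 41.5% with only the libraries compared, 41.3% with that replicate omitted and 24.8% with the trends removed. For CCl4 in the knockout, the cytosolic count of 10 became 2 with only the libraries compared and 6 with weights, and the mitochondrial count of 8 became 5 with either. For genotype in oil, the cytosolic count of 8 became 5 with quantile normalization and 3 with equal medians, and the mitochondrial count of 4 became 2 with only the libraries compared. The mitochondrial count of 9 for genotype after CCl4 became 5 with only the libraries compared. Fewer libraries enter the fits of only the libraries compared and with replicate 2 omitted; for the other settings the cause was not tested. The fit of only the libraries compared has no interaction. Quantile normalization moved the share of higher calls among all called genes from 64.4% to 51.8% (CCl4 in wild type), 67% to 56.4% (genotype in oil) and 42.8% to 53.1% (interaction), where the median of all tested genes moved from -0.089 to 0.015.

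Replicate numbers were not taken to pair libraries: the correlation over 10082 genes of the difference between replicates was 0.803 between knockout oil and knockout CCl4, -0.037 between the wild-type groups and -0.253 to 0.219 between genotypes. A replicate block over all 4 groups moved no count by more than 1.5 times. When a replicate block was set in the knockout only, counts became 12 cytosolic and 3 mitochondrial (CCl4 in wild type), 13 cytosolic (genotype in oil) and 11 and 7 (interaction), while the share of all tested genes called rose from 15.8% to 39.4%, 33.4% to 53.4% and 33.3% to 58.3%. Lars, at -0.01 and not called for genotype in oil, became 0.29 with that block and 0.26 with knockout replicate 2 omitted. Crossing the numbers between genotypes after CCl4, chosen with the GC correction after the data were seen, gave 14 cytosolic and 9 mitochondrial calls.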
